A study of Mus musculus with 4 samples.

Results

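Cytosolic and mitochondrial chaperones are the protein-folding machines of the cell outside the secretory pathway. The set described here was chosen by gene symbol and holds 40 genes: the HSP70 and HSP110 and HSP90 families with their co-chaperones, the chaperonins of the cytosol and of mitochondria, the J-proteins, prefoldin and the small heat shock proteins, with the regulator Hsf1. Of the 40 genes, 36 had at least 1 probe set that the platform annotation gives to that gene alone, out of 12393 such genes in all. In 35 of the 36 the value reached 7.53, the median of all deposited values and here called the floor, on at least 1 array. Only these 35 are called measured, out of 7179 measured genes. Hspa1a stayed below the floor on every array. Ptges3 was represented by 2 probe sets that carry a second symbol, and Hsp90ab1, Pfdn4 and Hsf1 were not analysed here.

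HSP70 proteins bind short stretches of unfolded protein and release them in a cycle driven by ATP, which J-proteins start and nucleotide exchange factors such as the HSP110 proteins complete. Clients can pass on to HSP90, which matures kinases and receptors with the help of co-chaperones, or to the chaperonins, closed barrels in which actin, tubulin (cytosol) and imported enzymes (mitochondria) fold. Prefoldin hands new chains to the cytosolic chaperonin, small heat shock proteins hold unfolded chains without ATP, and the transcription factor Hsf1 switches on many of these genes upon heat or proteotoxic stress.

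The values come from 4 Affymetrix 3-prime arrays of cultured mouse embryonic fibroblasts, strain C57/BJ6 as the labels spell it, with 1 array per group. The groups were Npm1+/- (heterozygote) total RNA, Npm1+/+ (wild type) total RNA, Npm1+/- polysome RNA and Npm1+/+ polysome RNA, and the labels name no agent, age or passage. Npm1 encodes nucleophosmin, a nucleolar protein of ribosome assembly, and the design sets total and polysome RNA of both genotype labels side by side. The labels do not say how many embryos or cultures gave the RNA, or whether the total and polysome RNA of a genotype came from the same culture. With 1 array per group no difference has a replicate check, no test was possible and no p-value is given.

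The libraries did not follow their genotype labels at Npm1, so they are named by label throughout. The first of its 2 probe sets read 12.03 in total RNA and 12.79 in polysome RNA labelled heterozygote, against 11.96 and 12.73 labelled wild type. The second differed by 0.05 (log2) between genotype labels in total RNA and by -0.09 in polysome RNA. The sources used here do not say whether either lies in the deleted part. The fibroblast label fitted its markers, with 11 of 11 fibroblast genes at or above the floor on every array, while 0 of 6 epithelial genes, 1 of 4 endothelial genes and 1 of 3 muscle genes reached it on any array. Of 14 macrophage genes 9 reached it on at least 1 array, and their summed linear signal was 1663 in total and 4178 in polysome RNA labelled heterozygote, against 1373 and 3196 labelled wild type. The array's control for the B1 repeat family differed by -3.17 (log2) in total RNA and -3.28 in polysome RNA, heterozygote minus wild-type label. Its controls named for the B2 repeat family differed less, by -0.32 and -0.51 in total RNA and by -0.19 and -0.47 in polysome RNA. The difference between the 3-prime and 5-prime control probe sets of Gapdh stayed between -0.09 and 0.12. The part of these differences in the results on chaperones was not tested, and in such bulk samples fewer cells of a type and less RNA per cell cannot be told apart.

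Hsf1 binds the heat shock element, a row of GAA units in alternating direction, so the promoters of the set are shown first. RefSeq windows (GRCm38.p6) of 300 bases, 250 before and 50 after an annotated start, were given for 33 of the 40 genes. An element of 3 units, that is GAA, TTC and GAA or TTC, GAA and TTC with any 2 bases between neighbouring units, on either strand, stood in 7 of the set's 44 windows (15.9%), from 5 genes, against 198 of all 32851 windows (0.603%). A row of 2 units, GAA and TTC in either order with any 2 bases between them, on either strand, which any row of 3 also holds, stood in 18 of the 44 windows (40.9%), from 16 genes, against 15.1% of all windows. The 5 genes with 3 units were Hsph1, Hspd1, Hspe1, Chordc1 and Dnajb6. Hspd1 and Hspe1, which encode the barrel and the lid of the mitochondrial chaperonin, lie head to head, and their windows share 285 bases (chr1:55087898-55088182), so they hold the same element and only the Hspe1 window is printed. The sequences below run 5′ to 3′ on the strand of the gene, with capitals marking the 3-unit elements in the first 4 and the 2-unit rows in the last 2. The first 4 show the elements, and Hspa1b and Hspb1 are shown as heat-inducible genes that had opposite differences between the genotype labels. Hsph1 is the window chr5:149636266-149636565 (minus strand), Hspe1 is chr1:55087898-55088197 (plus strand), Chordc1 is chr9:18292017-18292316 (plus strand), Dnajb6 is chr5:29735648-29735947 (plus strand), Hspa1b is chr17:34959189-34959488 (minus strand) and Hspb1 is chr5:135887669-135887968 (plus strand).
Hsph1: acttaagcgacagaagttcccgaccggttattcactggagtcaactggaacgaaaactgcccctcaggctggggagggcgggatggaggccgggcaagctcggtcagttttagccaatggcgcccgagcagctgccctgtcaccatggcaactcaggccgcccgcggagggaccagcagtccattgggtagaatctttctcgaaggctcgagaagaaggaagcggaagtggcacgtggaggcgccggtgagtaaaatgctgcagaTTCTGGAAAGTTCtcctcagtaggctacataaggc
Hspe1: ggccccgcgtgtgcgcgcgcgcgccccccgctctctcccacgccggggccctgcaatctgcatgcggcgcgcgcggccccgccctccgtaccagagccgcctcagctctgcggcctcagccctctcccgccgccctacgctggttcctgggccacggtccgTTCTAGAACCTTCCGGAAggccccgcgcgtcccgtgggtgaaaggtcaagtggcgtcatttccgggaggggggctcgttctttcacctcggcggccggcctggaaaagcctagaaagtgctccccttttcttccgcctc
Chordc1: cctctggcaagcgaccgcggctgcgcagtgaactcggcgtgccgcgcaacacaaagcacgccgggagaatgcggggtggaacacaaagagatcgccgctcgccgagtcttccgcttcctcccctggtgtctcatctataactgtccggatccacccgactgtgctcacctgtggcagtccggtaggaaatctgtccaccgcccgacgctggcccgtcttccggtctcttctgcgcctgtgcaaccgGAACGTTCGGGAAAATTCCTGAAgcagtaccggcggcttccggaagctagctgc
Dnajb6: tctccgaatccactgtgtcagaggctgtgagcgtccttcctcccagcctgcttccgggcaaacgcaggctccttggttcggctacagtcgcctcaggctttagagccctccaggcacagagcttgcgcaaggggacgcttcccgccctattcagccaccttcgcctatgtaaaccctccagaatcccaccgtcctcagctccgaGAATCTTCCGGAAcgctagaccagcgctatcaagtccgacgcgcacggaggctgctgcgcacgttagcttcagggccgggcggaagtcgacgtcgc
Hspa1b: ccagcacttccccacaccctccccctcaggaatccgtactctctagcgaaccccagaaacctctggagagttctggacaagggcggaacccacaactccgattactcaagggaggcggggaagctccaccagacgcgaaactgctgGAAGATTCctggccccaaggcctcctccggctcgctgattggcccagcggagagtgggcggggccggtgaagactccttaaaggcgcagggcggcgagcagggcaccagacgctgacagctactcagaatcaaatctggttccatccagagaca
Hspb1: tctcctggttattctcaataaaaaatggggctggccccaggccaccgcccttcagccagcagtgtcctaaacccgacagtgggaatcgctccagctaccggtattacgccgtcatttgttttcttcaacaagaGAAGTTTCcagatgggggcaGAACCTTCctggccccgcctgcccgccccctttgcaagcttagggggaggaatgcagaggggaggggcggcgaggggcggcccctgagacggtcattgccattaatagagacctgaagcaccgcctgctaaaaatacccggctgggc

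The capitals began 89 bases before the start in Hspe1, where 2 elements of 3 units overlap, and 46 bases before it in Dnajb6. Those of Chordc1 ran across the start, from 4 bases before it, and those of Hsph1 lay within the 50 bases after it. The Hspa1a and Hspa1b windows were equal at 296 of 300 bases, and both hold a 2-unit row that begins 104 bases before the start. These are matches of letters, not measured binding sites.

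All 9 measured genes of the HSP70, HSP110 and HSP90 families lay lower under the heterozygote label than under the wild-type label in both fractions, and both small heat shock proteins lay higher. Of all 7179 measured genes, 2415 lay lower and 4744 higher in total RNA, and 2631 lay lower and 4516 higher in polysome RNA. In total RNA 6 of the 35 measured genes were at least 1.5-fold lower (Hspa4, Hspa1b, Hspa9, Hsph1, Hsp90aa1 and Trap1), against 6.23% of all measured genes, and 3 were at least 1.5-fold higher (Pfdn2, Hspb1 and Hspb8), against 7.42% of all. The 6 are 17.1% of the set and the 3 are 8.57% of it, so the higher share lay near the background. In polysome RNA 4 were at least 1.5-fold lower (Hspa4, Hspa9, Hsph1 and Trap1), 11.4% of the set against 5.86% of all, and 0 were higher, against 2.08% of all. None of the 35 reached 2-fold in either fraction, against 1.73% of all measured genes in total RNA and 1.25% in polysome RNA. The median difference over the set was -0.15 (log2) in total RNA and -0.18 in polysome RNA, beside 0.19 and 0.11 over all measured genes. Because the median gene itself was off 0, the counts were also taken relative to it, a choice made after seeing the data. Then 9 genes in total RNA (25.7% of the set, 11.3% of all genes) and 6 in polysome RNA (17.1%, against 8.29% of all) were lower by 1.5-fold or more, and 0 were higher in either, against 1.37% and 0.85% of all. Hspa2, Cct4 and Hspd1 joined the lower genes in total RNA, Hspa1b and Hspa2 joined them in polysome RNA, and Pfdn2, Hspb1 and Hspb8 no longer passed. On that scale Hsph1 (-1.16, log2), Trap1 (-1.13) and Hspa4 (-1.06) were past 2-fold in total RNA. After subtraction of a loess trend of the difference on level, 8 were lower and 0 higher in total RNA, against 9.88% and 1.95% of all genes, and likewise 8 and 0 in polysome RNA, against 7.94% and 0.989%. The only measure of technical spread is the disagreement between probe sets of a gene, whose SD over 2700 genes was 0.32 (log2) in total RNA and 0.28 in polysome RNA. These probe sets were read on the same arrays, so the SD leaves out spread between arrays or cultures.

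**Figure D1:**
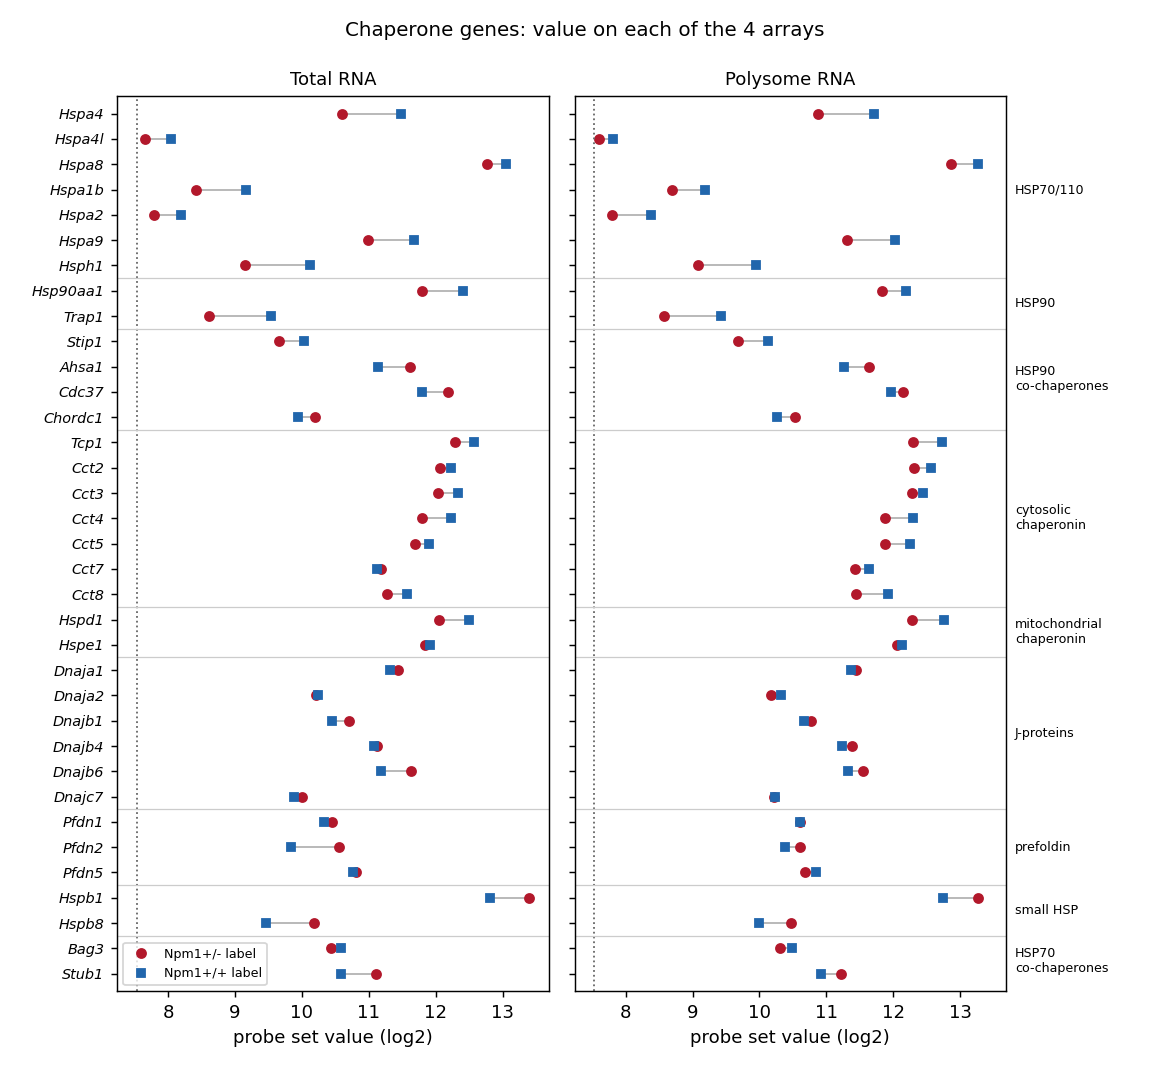
Deposited log2 value of the representative probe set (horizontal axis) of each measured chaperone gene (rows, grouped by role), in total RNA (left) and polysome RNA (right), 1 point per array, with the floor as a dotted line. Points of different rows are not comparable in level. Hspa4, Hspa9, Hsph1 and Trap1, and others such as Hspa1b, Hsp90aa1 and Hspa8, have both Npm1+/- points left of both Npm1+/+ points.

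All 7 measured HSP70 and HSP110 genes lay lower under the heterozygote label in both fractions, with median differences of -0.69 (log2) in total RNA and -0.58 in polysome RNA, and 4 and 3 of them passed 1.5-fold. Among the 7179 measured genes, 2415 lay lower in total RNA and 2631 in polysome RNA. Hsph1, the HSP105 exchange factor, read 9.14 in total and 9.08 in polysome RNA labelled heterozygote, against 10.11 and 9.95 labelled wild type. Both heterozygote values were below both wild-type values, 1.96-fold lower in total and 1.82-fold lower in polysome RNA, and its second probe set differed by -1.25 and -0.92 (log2). Hspa4, another HSP110 exchange factor, read 10.61 and 10.88 in total and polysome RNA labelled heterozygote, against 11.48 and 11.71 labelled wild type. It was 1.83-fold and 1.77-fold lower, while its other probe sets differed by -0.46 to -0.55, the same direction short of 1.5-fold. Hspa9, the HSP70 of mitochondria (mortalin), which pulls imported proteins into the matrix, read 10.98 and 11.31 labelled heterozygote, against 11.67 and 12.02 labelled wild type, in total and polysome RNA. Its difference was -0.69 (log2) in total and -0.72 in polysome RNA, and its further probe sets above the floor differed by -0.66 and -1.83 in total RNA and by -0.58, just short of 1.5-fold, and -1.79 in polysome RNA.

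Hspa1b, a heat-inducible HSP70, read 8.42 in total and 8.69 in polysome RNA labelled heterozygote, against 9.16 and 9.19 labelled wild type. The difference of -0.74 (log2) passed 1.5-fold in total RNA and that of -0.50 in polysome RNA did not, although its other probe sets differed by -0.65 and -0.79 in polysome RNA. Hspa1a and Hspa1b encode nearly identical proteins, so their probe sets may share signal. Hspa1a read 6.15 and 6.39 labelled heterozygote, against 6.48 and 6.88 labelled wild type, all below the floor, so no fold is given. Hspa8, the constitutive HSP70 and the brightest probe set of this family, read 12.77 and 12.87 labelled heterozygote, against 13.05 and 13.26 labelled wild type. Its difference was -0.28 (log2) in total and -0.39 in polysome RNA, short of 1.5-fold. A further probe set of Hspa8 differed by 0.29 and 0.53, but reached the floor only in polysome RNA labelled heterozygote. The others of this gene differed by -0.35 to -0.81. Hspa2, best known from male germ cells, and Hspa4l, an exchange factor related to Hspa4, differed by -0.40 and -0.39 (log2) in total RNA and by -0.58 and -0.20 in polysome RNA.

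Both measured HSP90 genes were lower as well. Trap1, the HSP90 of mitochondria, read 8.60 in total and 8.57 in polysome RNA labelled heterozygote, against 9.54 and 9.43 labelled wild type, a difference of -0.94 and -0.86 (log2), with its second probe set at -0.72 and -0.60. Hsp90aa1, the heat-inducible cytosolic HSP90, read 11.80 and 11.83 labelled heterozygote, against 12.40 and 12.19 labelled wild type. It passed 1.5-fold in total RNA (-0.60) and not in polysome RNA (-0.36), where its 2 other probe sets differed by -1.10 and -0.72. Over both families, 21 of the 22 probe sets at or above the floor were below 0 in each fraction, against 36% and 39.4% of all 11203 such named probe sets in total and polysome RNA. At least 1.5-fold lower were 15 of them, from 7 genes, in total RNA (7.7% of all probe sets) and 11, from 6 genes, in polysome RNA (7.35% of all), and probe sets of a gene are not independent. The 1 above 0 was that of Hspa8 which reached the floor only in polysome RNA labelled heterozygote.

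Of the HSP90 co-chaperones, 3 of 4 measured genes lay above 0 in both fractions and none passed 1.5-fold. That lay near the share of all measured genes above 0, 66.1% in total and 62.9% in polysome RNA. Relative to the median gene the group's median was 0.13 (log2) in total and 0.12 in polysome RNA. Cdc37, which brings kinases to HSP90 and was the brightest probe set of this group, read 12.18 in total and 12.14 in polysome RNA labelled heterozygote, against 11.80 and 11.96 labelled wild type. Ahsa1, an activator of the HSP90 ATPase, differed by 0.48 and 0.37 (log2) in total and polysome RNA, and Chordc1, an HSP90-binding protein, by 0.25 and 0.26. Stip1, the adaptor that joins HSP70 to HSP90, differed by -0.36 and -0.45, with the sign of the chaperones it joins.

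**Figure D2:**
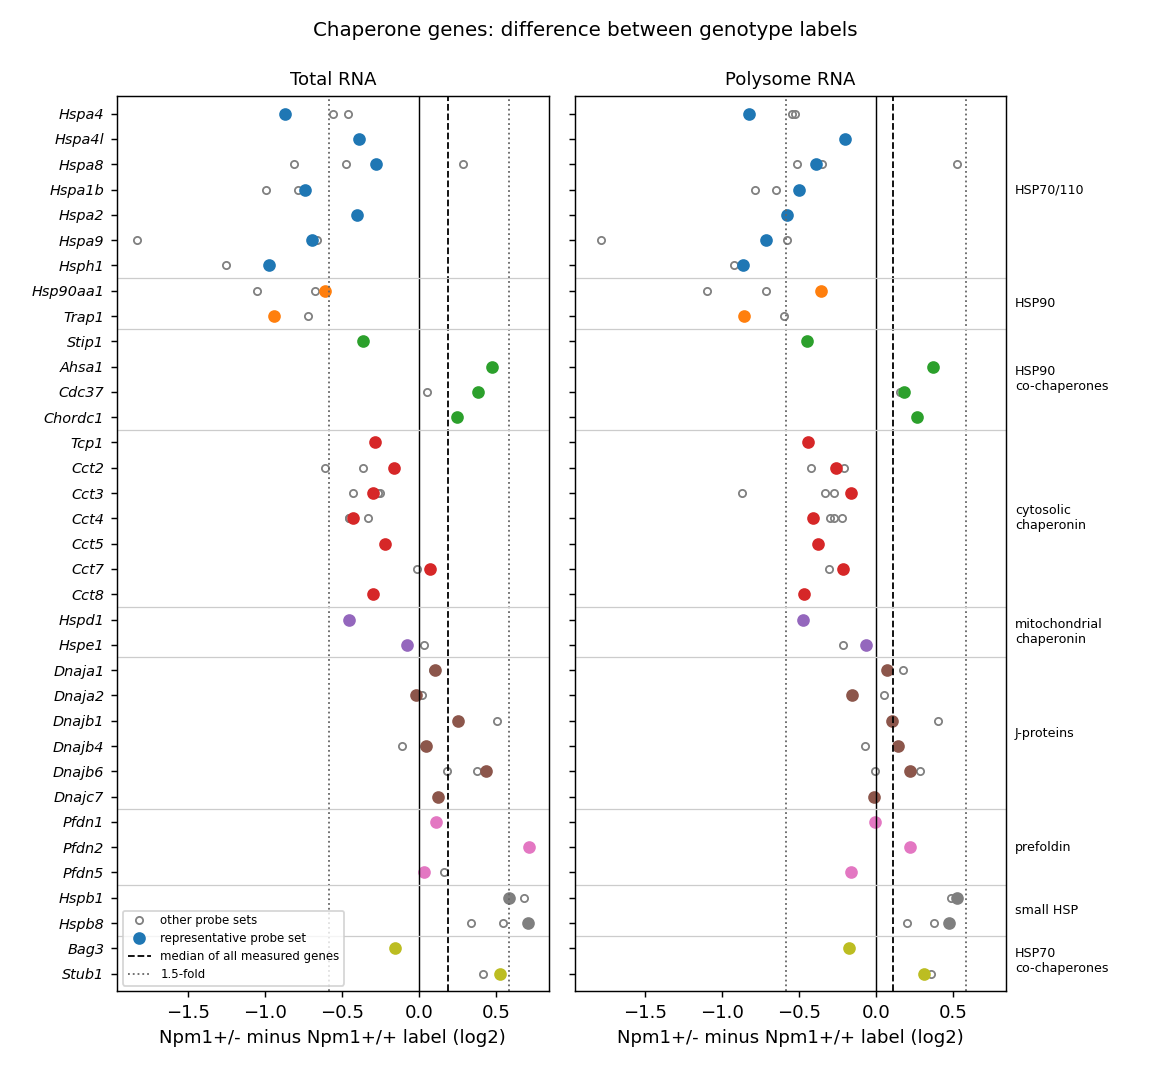
Difference between the genotype labels, Npm1+/- minus Npm1+/+ (log2, horizontal axis), for each measured chaperone gene in total RNA (left) and polysome RNA (right). Filled points are representative probe sets, open points its further probe sets that reached the floor, the dashed line is the median of all measured genes (0.19 and 0.11) and dotted lines mark 1.5-fold. The filled points of all 9 HSP70 and HSP110 and HSP90 genes lie left of 0 in both panels, and the small heat shock proteins lie right of it. An open point of Hspa8 lies right of 0 in both panels.

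The cytosolic chaperonin CCT, a ring of related subunits, lay slightly lower under the heterozygote label, with no representative probe set past 1.5-fold. Of its 7 measured subunits in the set, 6 were below 0 in total RNA (median -0.28, log2) and 7 in polysome RNA (median -0.38). Below 0 among all 7179 measured genes were 2415 in total RNA and 2631 in polysome RNA. Tcp1, the alpha subunit and the brightest probe set of the group, read 12.29 in both total and polysome RNA labelled heterozygote, against 12.58 and 12.73 labelled wild type. Differences ran from -0.42 (Cct4) to 0.07 (Cct7) in total RNA and from -0.47 (Cct8) to -0.16 (Cct3) in polysome RNA, and the SD between probe sets was exceeded by Cct4 in total RNA and by Tcp1, Cct4, Cct5 and Cct8 in polysome RNA. Further probe sets of Cct2 in total RNA (-0.61) and of Cct3 in polysome RNA (-0.87) were past 1.5-fold, as were Cct4 in total RNA after either shift of the scale and Cct8 in polysome RNA after subtraction of the loess trend. In the mitochondrial chaperonin, Hspd1 (HSP60) read 12.05 and 12.28 labelled heterozygote, against 12.50 and 12.76 labelled wild type, in total and polysome RNA. Its difference was -0.45 (log2) in total and -0.47 in polysome RNA, whereas that of its lid Hspe1 (HSP10) was -0.07 in both, although the pair shares a promoter window. The second probe set of Hspe1 differed by 0.04 in total and -0.22 in polysome RNA.

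The 6 J-proteins, which deliver clients to HSP70 and trigger its ATPase, showed small differences of either sign. Their medians were 0.12 (log2) in total RNA and 0.09 in polysome RNA, and both turned negative relative to the median gene, -0.07 and -0.02. Dnajb6, which holds back aggregates of polyglutamine proteins and was the brightest probe set of the group, read 11.63 in total and 11.55 in polysome RNA labelled heterozygote, against 11.19 and 11.33 labelled wild type. Its difference of 0.44 (log2) in total RNA was the highest among the representative probe sets of the J-proteins there. The others ran from -0.02 (Dnaja2) to 0.26 (Dnajb1, a heat-inducible J-protein). The second probe set of Dnajb1 differed by 0.51 in total and 0.40 in polysome RNA. Dnaja1 and Dnajb4 lay at 0.11 and 0.05, and Dnajc7, which can bind HSP70 and HSP90, at 0.12 in total RNA and -0.02 in polysome RNA.

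Of the prefoldin subunits, Pfdn2 read 10.55 in total and 10.60 in polysome RNA labelled heterozygote, against 9.83 and 10.38 labelled wild type. The total RNA labelled wild type was the low one of its 4 values, so the difference was 0.72 (log2, 1.64-fold higher) in total RNA and 0.22 in polysome RNA. Pfdn5, the brightest probe set of the 3 measured subunits, read 10.80 and 10.68 labelled heterozygote, against 10.77 and 10.85 labelled wild type. It differed by 0.03 in total and -0.17 in polysome RNA, and Pfdn1 by 0.11 and -0.01.

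Both small heat shock proteins were higher under the heterozygote label, as were 66.1% of all measured genes in total RNA and 62.9% in polysome RNA. Hspb1 (HSP27), which also steadies actin filaments, read 13.40 in total and 13.27 in polysome RNA labelled heterozygote, against 12.81 and 12.75 labelled wild type. Its difference was 0.59 (log2) in total RNA, at the edge of the 1.5-fold rule, and 0.52 in polysome RNA, short of it, and its second probe set differed by 0.68 and 0.49 (log2). Hspb8, which acts with Bag3 in the removal of damaged proteins by autophagy, read 10.18 and 10.47 labelled heterozygote, against 9.47 and 9.99 labelled wild type. Its difference was 0.71 (log2) in total and 0.48 in polysome RNA, while its other probe sets gave 0.55 and 0.34 in total RNA, short of 1.5-fold. Bag3 itself, an exchange factor of HSP70, differed by -0.15 and -0.18. Stub1 (CHIP), the ubiquitin ligase that marks HSP70 and HSP90 clients for the proteasome, read 11.11 and 11.23 labelled heterozygote, against 10.59 and 10.92 labelled wild type, a difference of 0.53 and 0.31 (log2) in total and polysome RNA.

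Across roles, the representative probe sets of the 4 mitochondrial genes (Hspa9, Hspd1, Hspe1 and Trap1) were all below 0, with medians of -0.57 (log2) in total and -0.59 in polysome RNA. Of all measured genes, 66.1% in total and 62.9% in polysome RNA were above 0. Mitochondrial genes outside the set lay on either side in total RNA, for example Grpel1 (0.56) and Grpel2 (0.26) above 0, Lonp1 (-0.66) and Clpx (-0.12) below. The 6 measured genes of the classical heat-inducible list (Hspa1b, Hsph1, Dnajb1, Hspb1, Bag3 and Hsp90aa1) were split, 4 below and 2 above 0 in each fraction. The 5 genes with the 3-unit element, which Hspd1 and Hspe1 share, were split too. In total RNA, Hsph1 (-0.97), Hspd1 (-0.45) and Hspe1 (-0.07) were below 0, and Chordc1 (0.25) and Dnajb6 (0.44) above. Of the 25 measured genes whose windows lack it, 13 were below and 12 above 0, while 66.1% of all measured genes were above. No window was given for the measured genes Hspa8, Hspa9, Hsp90aa1, Cct4 and Pfdn1. Whether the element has a part in the differences was not tested.

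The total and polysome arrays gave the set a like picture. The sign was the same in both fractions for 31 of 35 genes (88.6%), 20 lower and 11 higher under the heterozygote label, against 87.2% of all measured genes. Pearson's r between both differences was 0.951 and Spearman's rho 0.939 across the 35 genes, and 0.907 and 0.876 across all measured genes. This is a description across genes, which are not independent replicates and share 4 arrays. The signs differed for Cct7, Dnajc7, Pfdn1 and Pfdn5, none of them at 1.5-fold in either fraction.

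**Figure D3:**
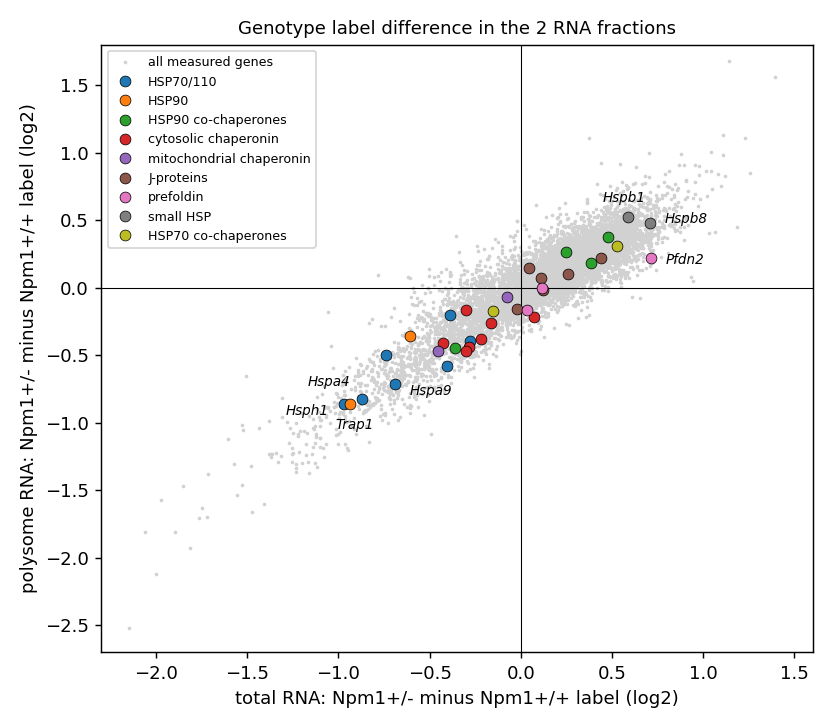
Difference between the genotype labels (Npm1+/- minus Npm1+/+, log2) in total RNA (horizontal axis) and polysome RNA (vertical axis). Grey dots are the 7179 measured genes and coloured points the 35 measured chaperone genes by role, with Hsph1, Trap1, Hspa4 and Hspa9 at the lower left and Hspb1, Hspb8 and Pfdn2 at the upper right.

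The comparison of polysome with total RNA asks how an RNA stood among the RNAs of each fraction. Because the arrays were scaled to each other, it does not give the share of an RNA held on ribosomes. None of the 35 genes differed by 1.5-fold at its representative probe set under either label, against 3.59% of all measured genes labelled heterozygote and 5.21% labelled wild type. The median over the set was 0.08 (log2) under the heterozygote label and 0.17 under the wild-type label, close to 0.07 and 0.14 over all genes. The representative probe sets of the cytosolic chaperonin lay toward the polysome side, with 6 of 7 above 0 labelled heterozygote (median 0.19) and 7 of 7 labelled wild type (median 0.35). Of the 7179 measured genes, 4673 labelled heterozygote and 5424 labelled wild type were above 0. Further probe sets of Cct2 (-0.16 and -0.56) and Cct4 (-0.38 and -0.61) lay below 0 labelled heterozygote and wild type. The last was past 1.5-fold, while some others of both genes lay above 0. Both mitochondrial chaperonin genes also lay above 0, at a median of 0.23 under each label. Relative to the median gene it was 0.16 labelled heterozygote and 0.09 labelled wild type, again within that SD. Probe sets of a gene often disagreed here: of the 22 genes with more than 1 at or above the floor, 13 had mixed signs labelled heterozygote and 7 labelled wild type. Trap1 stood at -0.03 and -0.11 under the heterozygote and wild-type labels. Hsp90aa1 stood at 0.03 and -0.21, but its other probe sets lay at 0.22 and 0.17 labelled heterozygote and 0.27 and 0.21 labelled wild type. Hspa9 stood at 0.32 labelled heterozygote and 0.35 labelled wild type, while its second brightest probe set lay at -0.06 and -0.14. Chordc1, with a single probe set, stood at 0.34 and 0.32.

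**Figure D4:**
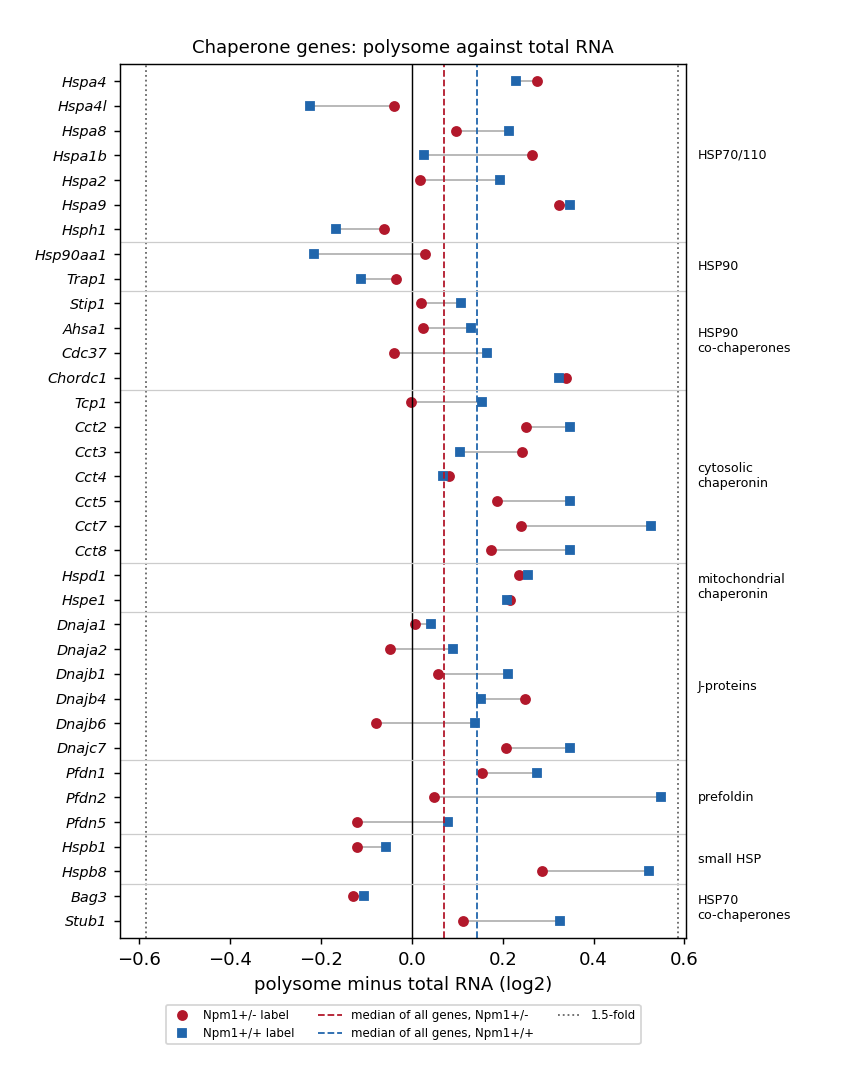
Polysome minus total RNA (log2, horizontal axis) for each measured chaperone gene, under the Npm1+/- label (circles) and the Npm1+/+ label (squares). Dashed lines are medians over all measured genes and dotted lines mark 1.5-fold, which no representative probe set of a chaperone gene passes under either label.

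The association difference is polysome minus total under the heterozygote label, minus the same under the wild-type label. It passed 1.5-fold in none of the 35 genes and in 0.306% of all measured genes. Its median was -0.10 (log2) over the set and -0.07 over all genes. Pfdn2 lay farthest from 0, at -0.50, with polysome minus total of 0.05 labelled heterozygote and 0.55 labelled wild type. Cct7 followed at -0.29, Hsp90aa1 at 0.24, Hspa1b at 0.24 and Hspb8 at -0.24. These 5 of 35 genes were past 0.22, the SD between probe sets, as were 21.9% of all measured genes. The other probe sets of Hsp90aa1 gave -0.05 and -0.05, and the signs were mixed in 10 of the 22 genes with more than 1 probe set.

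Of 62 further genes of the same folding pathways, 49 were measured, and in total RNA 37 of them lay above and 12 below 0, with a median of 0.31 (log2). Above 0 were 75.5% of this list and 66.1% of all measured genes, and relative to the median gene its median was 0.13. At least 1.5-fold higher in total RNA were 6 of them (12.2%, against 7.42% of all genes), among which Bag4 (0.90), Dnajc9 (0.75), Dnajb2 (0.68) and Dnajc21 (0.65) lay farthest from 0. Lower by that much were 2 (4.08%, against 6.23% of all), Bag6 (-0.75), which guards membrane proteins before insertion, and Lonp1 (-0.66), the main protease of the mitochondrial matrix. In polysome RNA 34 (69.4%, against 62.9% of all genes) lay above and 15 below 0, and 0 passed 1.5-fold upward, against 2.08% of all. Lower there were 2 (4.08%, against 5.86% of all): Lonp1 (-0.69) and the mitochondrial disaggregase Clpb (-0.66), which reached the floor only in polysome RNA labelled wild type. Vbp1 and Pfdn6, prefoldin subunits of this list named after their values were seen, differed by 0.42 and 0.46 in total RNA and by 0.39 and 0.42 in polysome RNA. Cct6a, the remaining CCT subunit in the list with a measured probe set, differed by -0.03 and -0.20.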

How the data were processed

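Affymetrix arrays of mouse embryonic fibroblasts, 1 per group, were used. The deposited values are log2 values, 1 per probe set and array, made with affy 1.56.0 and RMA under R 3.4.3, per the submitters' processing notes, which corrects background, scales the arrays to each other and combines the probes of a probe set. Per the labels' protocols, RNA came from fractions of a sucrose gradient, was amplified with T7 polymerase and labelled with biotin. The settings and the genome build of the annotation are not given in the sources used here. No detection calls were used, and precision is limited by the number of arrays.

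Of 22690 probe sets, 20380 had 1 gene symbol and were named, 691 had several and 1619 none. The platform annotation gave the names, and all 36 genes of the set on the array were found in RefSeq under the same symbol. Each gene took the values of 1 probe set, that of the highest mean level. Differences were counted past 1.5-fold, an absolute log2 difference of at least 0.58. Values on all arrays are given for genes past it and for the brightest probe set of each role. The members and lists were chosen with earlier results of these data known. The calculation was tested on simulated shifts. Alternatives tried were the average over a gene's probe sets, leaving out names ending in _x_at or _s_at, no floor or a floor at the 75th percentile (9.33), centring, quantile normalisation, a loess trend on level (span 0.3) and 2-fold. Tools were Python 3.11.15, pandas 2.3.3, scipy 1.17.1 and statsmodels 0.14.6.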

Additional observations from a re-analysis of the deposited data

How the results depend on the processing

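The median of polysome minus total RNA over the set, labelled heterozygote, was 0.08 (log2) and turned to -0.020 when each array was centred on its median. With 2-fold in place of 1.5-fold the count of genes past the rule between genotype labels became 0, against 9 in total RNA and 4 in polysome RNA. Subtracting the loess trend on level made the count in polysome RNA 8, all lower, while the share of all genes that were lower went up to 7.94%, against 5.86% as deposited. The cause was not tested. Of 103 values of the 13 gene differences past 1.5-fold under the alternatives, 0 reversed and 96 still passed. Both changes of the floor and leaving out names ending in _x_at or _s_at could not move these values, because the probe set stayed the same. The values that no longer passed all belonged to the upward differences of Pfdn2, Hspb1 and Hspb8 in total RNA. The medians of the J-proteins, prefoldin and the HSP70 co-chaperones between genotype labels changed sign under some scalings, and those of the HSP70 and HSP110, HSP90, CCT and small heat shock proteins did not. No paired analysis was possible because every group holds 1 array. Protein sequences were not used here. The floor stands in for detection, and below it only Hspa1a was lost.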
